A study of Arabidopsis thaliana with 6 samples.

Results

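The genes described here are 10 nuclear genes of chlorophyll synthesis in Arabidopsis thaliana, chosen by name out of 31276 genes in the deposited table: HEMA1, CHLH, CHLD, CHLI1, GUN4, CRD1, PORA, PORB, PORC and CAO. All 10 were found by their AGI code. They were measured by RNA-seq in Col-0 hypocotyls, the embryonic stems of 1-week-old seedlings, taken either at excision (day 0, 3 biological replicates) or after 7 days on callus-inducing medium (day 7, 3 biological replicates). No transgene, mutant or other agent is named for either group, and the light regime of the culture is not given in the sources used here. Both groups carry callus as their tissue label, although the day 0 tissue was collected straight after excision.

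Chlorophyll is made in plastids by enzymes that the nuclear genome encodes. Glutamyl-tRNA is first reduced on the way to aminolevulinic acid, which also feeds heme and siroheme; magnesium chelatase then commits protoporphyrin to the chlorophyll branch, and a cyclase, a light-dependent reductase and later enzymes complete chlorophyll a, part of which is oxidised to chlorophyll b. In leaves these genes are switched on by light together with those of the photosynthetic proteins, and free intermediates are phototoxic. Hypocotyls green in the light, whereas roots keep the pathway low.

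Values are TPM, transcript abundance per length scaled to a fixed total per library, so levels of different genes can be set side by side, but the sequencing depth is unknown and no counting interval is given. By replicate number, nuclear protein-coding genes held 59.5%, 86.4% and 71.2% of that total at day 0 and 37.6%, 81.0% and 52.0% at day 7. All listed genes together held 79.4% to 92.2% of it in the 6 libraries, and the remainder is not listed. Every gene's TPM thus also moves with the rest of its library. The tests were therefore read on the deposited scale and again after median-of-ratios scaling, which sets the median gene of each library to a common level. A gene was tested if it reached 1 TPM in at least 3 libraries, and rose or fell if its limma-trend adjusted p was below 0.05. Of the tested genes 29.6% changed on the deposited scale (16.2% fell and 13.4% rose), and 64.9% did after scaling (33.8% fell and 31.1% rose). In bulk tissue, fewer cells of a type and less RNA per cell cannot be told apart. On the deposited scale the root stem cell markers PLT1 and PLT2 rose in callus and WOX5 and SCR did not pass, while SCR rose after scaling. All 3 tested epidermis markers fell. The 3 guard cell markers were too low to be tested. FAMA was at 0.86, 0.80 and 1.55 TPM at day 0 and at 0 in every day 7 library. KAT1 was below 1 TPM throughout and lower at day 7, and MUTE overlapped between the groups. Of 3 vascular markers SUC2 and APL fell and IRX3 did not pass, and the root cap marker SMB rose.

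The stretches just upstream of CRD1, CAO and PORB are shown because they hold the motifs that were searched for in the upstream windows of these genes and belong to genes that were lower in callus. The window of GUN4 meets both conditions but overlaps the gene AT3G59410, and it is not shown. Each runs 5′ to 3′ on the gene's strand over the 150 bases before the annotated gene start, from the RefSeq genome and annotation of build TAIR10.1 (the submitters' processing notes name TAIR10). Capitals mark the G-box CACGTG, a site type bound by light-regulated bZIP and bHLH factors, in CRD1 and CAO, and the element CCAATC in PORB.
CRD1 (chr3:21076355-21076504, plus strand): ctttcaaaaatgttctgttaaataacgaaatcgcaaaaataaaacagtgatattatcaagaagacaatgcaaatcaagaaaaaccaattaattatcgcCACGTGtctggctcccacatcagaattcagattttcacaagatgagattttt
CAO (chr1:16851272-16851421, minus strand): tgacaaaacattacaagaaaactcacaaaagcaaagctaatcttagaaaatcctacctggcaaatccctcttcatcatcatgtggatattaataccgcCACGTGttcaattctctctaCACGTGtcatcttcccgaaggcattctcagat
PORB (chr4:13725396-13725545, plus strand): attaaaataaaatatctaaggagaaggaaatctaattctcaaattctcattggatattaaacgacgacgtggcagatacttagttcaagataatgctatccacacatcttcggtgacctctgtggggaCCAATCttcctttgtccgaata
The first base of the G-box lay 52 bases before the start of CRD1, and 52 and 32 bases before that of CAO; CCAATC lay 22 bases before that of PORB. Searched on both strands, CACGTG was in the windows of 2 of the 10 genes and in 4.78% of the windows of 27443 nuclear protein-coding genes. CCAATC was in 2 (GUN4 and PORB) against 6.60% of all windows, and GATAAG in 1 (PORA) against 7.62%, and no 2 matches in these 10 windows overlapped. The windows of HEMA1, CHLH, CHLD, CHLI1 and PORC held none of the 3 motifs.

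Most of the 10 genes were lower in 7-day callus than in the excised hypocotyl, and none rose on the deposited scale. PORA was near 0 throughout and was not tested; of the other 9, 7 fell (CHLH, CHLI1, GUN4, CRD1, PORB, PORC and CAO) and HEMA1 and CHLD did not pass, against 16.2% of all tested genes that fell and 13.4% that rose. GUN4 reached 1 TPM in the 3 day 0 libraries only, so it entered the test through the group in which it is high; of the 8 that reached it in both groups 6 fell. The median log2 difference of the 9 was -1.24, beside 0.05 over all tested genes, and after scaling 8 fell and 0 rose, with a median of -1.31 beside -0.01 (33.8% of all tested genes fell). The groups did not overlap, with day 7 lower, for 6 of the 10 (all but HEMA1, CHLD, PORA and PORB) on the deposited scale, where 19.5% of tested genes did so, and for 8 after scaling, where 36.3% did.

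The count on the deposited scale varied with the library left out. It was 2 of 8 tested genes (CHLH and CRD1) without day 0 replicate 3, where 7.65% of all tested genes fell. Without day 0 replicate 2 it was 4 of 8 (7.94% of all tested genes), and without day 7 replicate 3 it was 4 of 9 (11.5%). The remaining fits gave 5 of 8 without day 0 replicate 1, 6 of 9 without day 7 replicate 1 and 8 of 9 without day 7 replicate 2. Over all tested genes 1722, 2528 and 4888 fell in these fits, beside 3015 with all 6 libraries. After scaling, 7 of 8 tested genes still fell without day 0 replicate 3, against 27.9% of all tested genes, an alternative chosen after seeing the data.

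**Figure D1:**
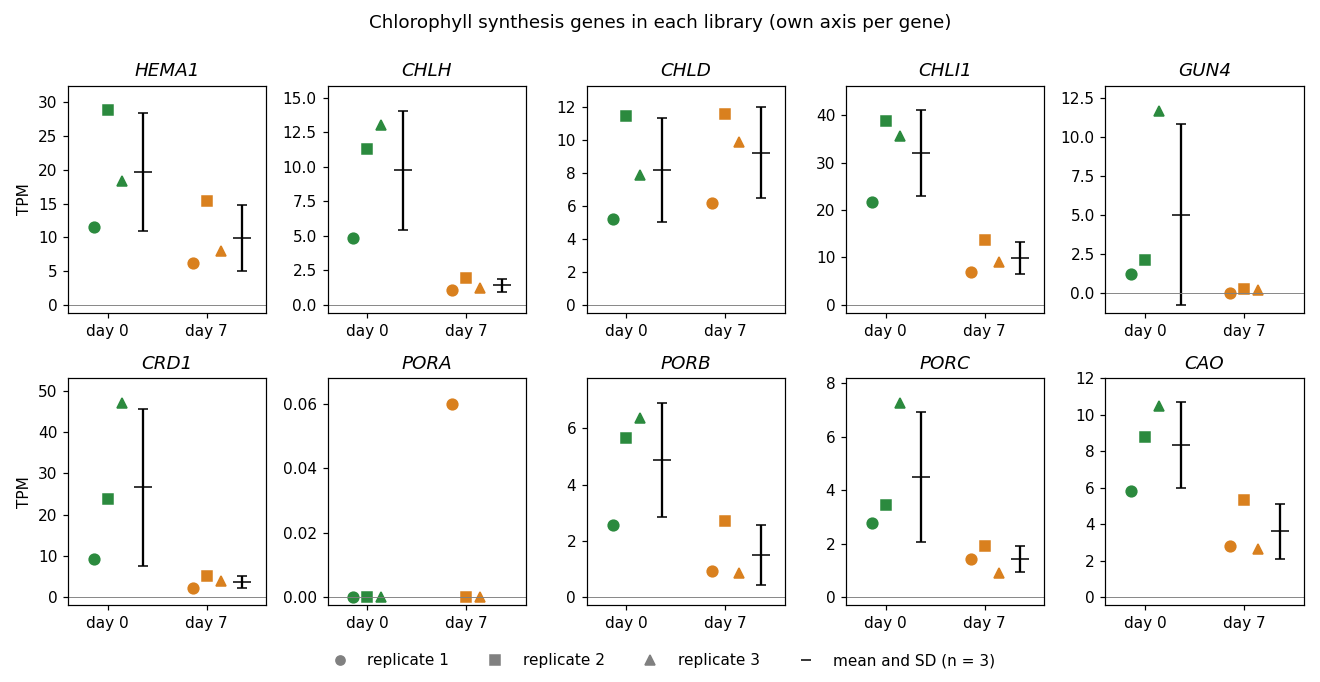
TPM of each of the 10 genes (vertical axis, own scale per gene) in the 3 day 0 libraries (green) and the 3 day 7 libraries (orange), with the mean and SD of each group where the gene was tested and no library was at 0. CHLD overlaps between the groups (5.19 to 11.5 TPM at day 0, 6.21 to 11.6 at day 7), while CHLH and CRD1 are lower in every day 7 library.

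The order of the levels changed with the tissue. At day 0 the mean TPM was highest for CHLI1 (32.0) and CRD1 (26.7), then HEMA1 (19.6), CHLH (9.75), CAO (8.36), CHLD (8.18), GUN4 (5.01), PORB (4.86) and PORC (4.50). At day 7 HEMA1 (9.89), CHLI1 (9.86) and CHLD (9.24) led, followed by CRD1 (3.73), CAO (3.61), PORB (1.5), PORC (1.42), CHLH (1.40) and GUN4 (0.147). The day 0 places of CRD1 and GUN4 rested on replicate 3: over replicates 1 and 2 the mean was 16.5 TPM for CRD1, below HEMA1 (20.2), and 1.66 TPM for GUN4, below PORB (4.11) and PORC (3.11). Neighbours such as HEMA1, CHLI1 and CHLD at day 7, or CHLH, CAO and CHLD at day 0, lay within their SDs of each other.

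HEMA1 (AT1G58290) encodes the main glutamyl-tRNA reductase of green tissue, the enzyme of the first committed step. Listed here and below by replicate number, its TPM at day 0 was 11.6, 28.9 and 18.4, and at day 7 it was 6.24, 15.4 and 8.0. Replicate 2 was the highest of each group, and its day 7 value lay above day 0 replicate 1, so the groups overlapped. The mean was 1.98-fold lower at day 7 without passing (log2 difference -0.92 ± 0.45 SE, limma-trend adjusted p = 0.106), and it fell after scaling (-0.99 ± 0.17 SE, limma-trend adjusted p = 0.00132). Its paralogue HEMA2, the isoform of non-green tissue, had 7.83 ± 2.91 TPM in excised tissue and 6.47 ± 2.48 TPM in callus (SD, n = 3) and did not pass on either scale. Within each library there were 2.02, 2.59 and 2.78 HEMA1 transcripts per HEMA2 transcript at day 0 and 1.12, 1.66 and 1.75 at day 7. This ratio does not depend on library scaling and did not overlap between the groups. It was picked after the levels had been seen and was not tested. The share of all genes that separate when divided by HEMA2 was not computed. Of single tested genes 36.3% separated with day 7 lower after scaling.

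Of the subunits of magnesium chelatase CHLH and CHLI1 fell and CHLD did not pass. CHLH (AT5G13630), the large subunit that binds the porphyrin, was at 4.86, 11.3 and 13.1 TPM at day 0 and at 1.09, 1.91 and 1.21 TPM at day 7. Every day 7 library lay below every day 0 library. The mean was 6.95-fold lower, with a log2 difference of -2.08 ± 0.40 (SE, limma-trend adjusted p = 2.75e-06) and the same call in each of the 6 fits that left out a library.

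CHLI1 (AT4G18480), the main ATPase subunit, was at 21.6, 38.8 and 35.6 TPM at day 0 and at 6.90, 13.7 and 9.02 TPM at day 7, again without overlap. It fell 3.25-fold (log2 difference -1.61 ± 0.44 SE, limma-trend adjusted p = 0.00159; adjusted p = 0.0601 without day 0 replicate 3). Its close copy CHLI2 was scarcer, with 2.35 ± 1.13 TPM in excised tissue and 0.757 ± 0.352 TPM in callus (SD, n = 3), and fell as well (limma-trend adjusted p = 0.0260; this call was lost in 4 of the 6 fits that left out a library). There were 0.0527, 0.0869 and 0.0713 CHLI2 transcripts per CHLI1 transcript at day 0 and 0.0870, 0.0850 and 0.0565 at day 7, which overlap. How reads common to the copies were counted is not stated. CHLI1 shares 7.21% of its exonic bases with AT4G18465 (5.02 to 22.7 TPM over the 6 libraries) and CHLI2 8.87% with AT5G45940 (4.97 to 14.4 TPM), both on the opposite strand, and the latter stood above CHLI2 itself in every library.

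CHLD (AT1G08520), which joins the ATPase ring to the large subunit, was at 5.19, 11.5 and 7.87 TPM at day 0 and at 6.21, 11.6 and 9.89 TPM at day 7. The groups overlapped almost fully and the log2 difference was 0.18 ± 0.44 (SE, limma-trend adjusted p = 0.809). When each library was instead scaled to its nuclear protein-coding total, the median of all genes moved to 0.41, 50.1% of tested genes rose, and CHLD rose too (log2 difference 0.56, limma-trend adjusted p = 0.0208).

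Ratios within a library, taken after the levels had been seen, do not depend on scaling. There were 0.936, 0.987 and 1.66 CHLH transcripts per CHLD transcript at day 0 and 0.175, 0.165 and 0.122 at day 7. CHLI1 per CHLD went from 4.17, 3.38 and 4.53 to 1.11, 1.18 and 0.912. Neither ratio overlapped between the groups, and they were not tested because they were picked after seeing the values. Both divide by CHLD, which did not pass, so a gene that fell tends to come out lower.

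**Figure D2:**
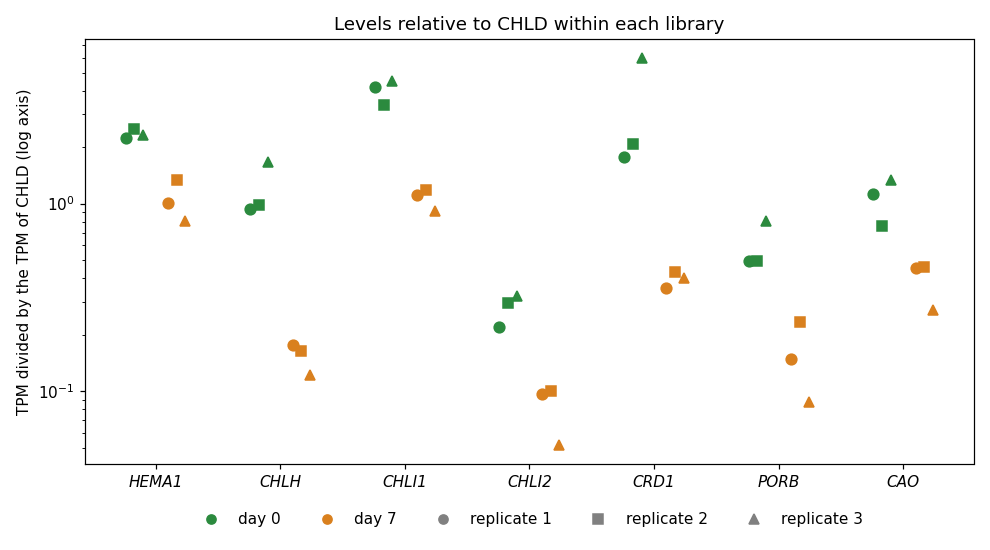
TPM of 6 of the genes and of CHLI2 divided by the TPM of CHLD in the same library (log axis), with day 0 in green, day 7 in orange and a symbol for each replicate. All 7 ratios are lower in every day 7 library than in every day 0 library. CRD1 per CHLD, for example, spans 1.78 to 5.97 at day 0 and 0.353 to 0.432 at day 7. The ratios share CHLD, picked after the levels had been seen, so they are not 7 independent results. The share of all genes that separate when divided by CHLD was not computed. HEMA1, PORB and CHLI2 themselves overlapped between the groups on the deposited scale.

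GUN4 (AT3G59400), a porphyrin-binding protein that stimulates magnesium chelatase, was at 1.21, 2.11 and 11.7 TPM at day 0 and at 0, 0.260 and 0.180 TPM at day 7. Day 0 replicate 3 stood far above the other libraries, and the groups did not overlap. The log2 difference was -1.96 ± 0.32 (SE, limma-trend adjusted p = 1.82e-08), and -2.01 ± 0.56 after scaling (SE, limma-trend adjusted p = 0.0139). In the TAIR10.1 annotation 73.0% of the exonic bases of GUN4 are shared with exons of AT3G59410 on the opposite strand, and whether counting used strand is not stated, so reads of the pair cannot be told apart. AT3G59410 was at 2.42, 6.17 and 3.69 TPM at day 0 and 5.18, 8.82 and 6.37 TPM at day 7.

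CRD1 (AT3G56940), also called CHL27, is the membrane-bound subunit of the cyclase that closes the fifth ring of the molecule. Its TPM was 9.22, 23.8 and 47.0 at day 0 and 2.19, 5.02 and 3.97 at day 7. The day 0 libraries differed more among themselves than the day 7 libraries did, yet the lowest of them was above the highest day 7 value. Its log2 difference was -2.33 ± 0.44 as deposited (SE, limma-trend adjusted p = 1.61e-06) and -2.40 ± 0.42 scaled (SE, limma-trend adjusted p = 0.00136), and it kept its call in each of the 6 fits that left out a library. Of its exonic bases 9.85% are shared with AT3G56950 on the opposite strand, which stood at 26.6 to 39.7 TPM at day 0 and 13.3 to 32.2 TPM at day 7. CHLM, the methyltransferase that supplies the substrate of the cyclase, had 8.03 ± 3.89 TPM in excised tissue and 7.61 ± 0.676 TPM in callus (SD, n = 3) and did not pass. CRD1 per CHLM therefore went from 2.03, 3.26 and 3.84 to 0.312, 0.602 and 0.532. LCAA, a small protein that the cyclase needs, fell 2.91-fold (limma-trend adjusted p = 0.00659, a call lost in 2 of the 6 fits that left out a library).

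The 3 protochlorophyllide oxidoreductases, which need light to act, were all scarce. PORA (AT5G54190), the form of dark-grown seedlings, was listed at 0 in 5 libraries and at 0.0600 TPM in day 7 replicate 1. PORB (AT4G27440), which is made in dark and light, was at 2.56, 5.65 and 6.38 TPM at day 0 and at 0.920, 2.72 and 0.870 TPM at day 7. Day 7 replicate 2 lay just above day 0 replicate 1, so PORB overlapped as deposited; after scaling it did not.

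PORC (AT1G03630), the form induced by light, was at 2.77, 3.45 and 7.27 TPM at day 0 and at 1.44, 1.91 and 0.920 TPM at day 7, without overlap. PORB fell 3.24-fold and PORC 3.16-fold, with log2 differences of -1.24 ± 0.38 and -1.12 ± 0.37 (SE, limma-trend adjusted p = 0.00496 and 0.0119). On the deposited scale neither call held when replicate 3 of day 0 or of day 7 was left out, and that of PORB also failed without replicate 2 of day 0. PORB shares 4.33% of its exonic bases with AT4G27450 on the opposite strand, which stood at 7.70 to 32.6 TPM at day 0 and at 774 to 1198 TPM at day 7, and reads of the pair over that stretch cannot be told apart.

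The shares of PORB and PORC among POR transcripts overlapped between the groups. PORB made up 48.0%, 62.1% and 46.7% of POR transcripts at day 0 and 38.0%, 58.8% and 48.6% at day 7, and PORC made up nearly all of the remainder. In the exact two-sided permutation test over 3 against 3 libraries, whose smallest p is 0.1, PORB and PORC each gave p = 0.7 and PORA p = 1.0, and all were 1.0 after adjustment over the 3; 3 libraries a group do not show that the shares are the same.

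CAO (AT1G44446), chlorophyllide a oxygenase, makes chlorophyll b. It was at 5.84, 8.77 and 10.5 TPM at day 0 and at 2.81, 5.34 and 2.67 TPM at day 7, with the groups apart by a narrow margin. The mean was 2.32-fold lower, with a log2 difference of -1.04 ± 0.43 (SE, limma-trend adjusted p = 0.0495). That call sat at the threshold and was lost in 5 of the 6 fits that left out a library; after scaling CAO fell with an adjusted p of 0.00119 (limma-trend, log2 difference -1.10 ± 0.19 SE).

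**Figure D3:**
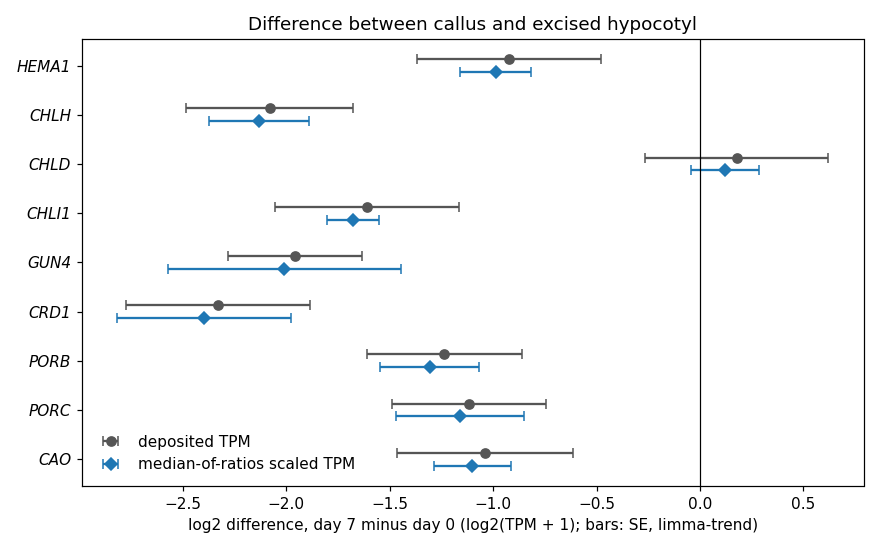
Log2 difference of the 9 tested genes, day 7 minus day 0 on log2(TPM + 1), with its SE from limma-trend, on the deposited scale (grey circles) and after median-of-ratios scaling (blue diamonds). Estimates run from -2.33 for CRD1 to 0.18 for CHLD as deposited, and scaling narrows most bars but widens that of GUN4.

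At day 0 the genes differed in how strongly replicate 3 stood out. After scaling, replicate 3 exceeded the mean of replicates 1 and 2 by 7.27-fold for GUN4, 3.06-fold for CRD1, 2.32-fold for PORC, 1.71-fold for CHLH, 1.64-fold for PORB, 1.45-fold for CAO and 1.22-fold for CHLI1, whereas CHLD (0.998) and HEMA1 (0.973) were level. Over 18391 tested genes the median of this ratio was 0.987 and its 90th percentile 1.3. The 9 genes of photosynthetic proteins that were listed as mesophyll markers moved the same way. Their summed TPM at day 0 was 146, 168 and 1154 by replicate number, against 20.6 to 47.0 at day 7. Of the 9, 0 were at 0 in all libraries of a group, and all 8 tested fell. Of those 8, 2 entered the test through day 0 alone. Over all tested genes 16.2% fell. Such genes are switched on by light together with the chlorophyll genes, so their levels do not count the cells of a type. The part of cell composition in the lower levels of the chlorophyll genes was not tested.

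The rest of the pathway was read list by list, beside the shares of all tested genes. The lists were chosen with earlier results of these data known and are given as counts. Of 14 tested genes for the common steps to protoporphyrin 1 fell, 2 rose and 11 did not pass, with a median log2 difference of -0.22. Over all tested genes 16.2% fell and 13.4% rose. After scaling 6 of the 14 fell and 3 rose, beside 33.8% and 31.1% of all tested genes. HEMC, porphobilinogen deaminase, fell from 33.7 ± 11.3 to 14.2 ± 5.35 TPM (limma-trend adjusted p = 0.0260, lost in 4 of the 6 fits that left out a library). HEMF2, the second copy of coproporphyrinogen oxidase, rose 6.96-fold from 2.45 ± 0.515 to 17.1 ± 3.77 TPM (SD, n = 3 each; limma-trend adjusted p = 5.87e-07). The other rise was that of the scarce HEMA3, named after its values were seen, from 0.293 ± 0.0751 to 1.5 ± 0.624 TPM. It reached 1 TPM at day 7 only, and its call was lost in each of the 3 fits without a library that tested it.

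Among 6 further genes of the magnesium branch 3 fell and 3 did not pass on the deposited scale, where 16.2% of all tested genes fell. After scaling 4 fell and 2 did not pass, where 33.8% of all tested genes fell. CHLP, geranylgeranyl reductase of the phytol tail, was at 14.6, 26.3 and 42.2 TPM at day 0 and at 3.87, 5.40 and 5.24 TPM at day 7, without overlap. It fell 5.73-fold (log2 difference -2.19 ± 0.45 SE, limma-trend adjusted p = 8.35e-06), and the other falls were LCAA and CHLI2. The divinyl reductase gene DVR had 3.11 ± 1.21 and 3.05 ± 1.46 TPM in excised tissue and callus, and the chlorophyll synthase gene CHLG 5.17 ± 2.01 and 2.79 ± 0.501 TPM (SD, n = 3), neither passing on the deposited scale; CHLG fell after scaling (limma-trend adjusted p = 0.0456). CHLP and LCAA share 16.2% and 18.7% of their exonic bases with genes on the opposite strand that stood at most at 0.560 and 1.26 TPM.

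**Figure D4:**
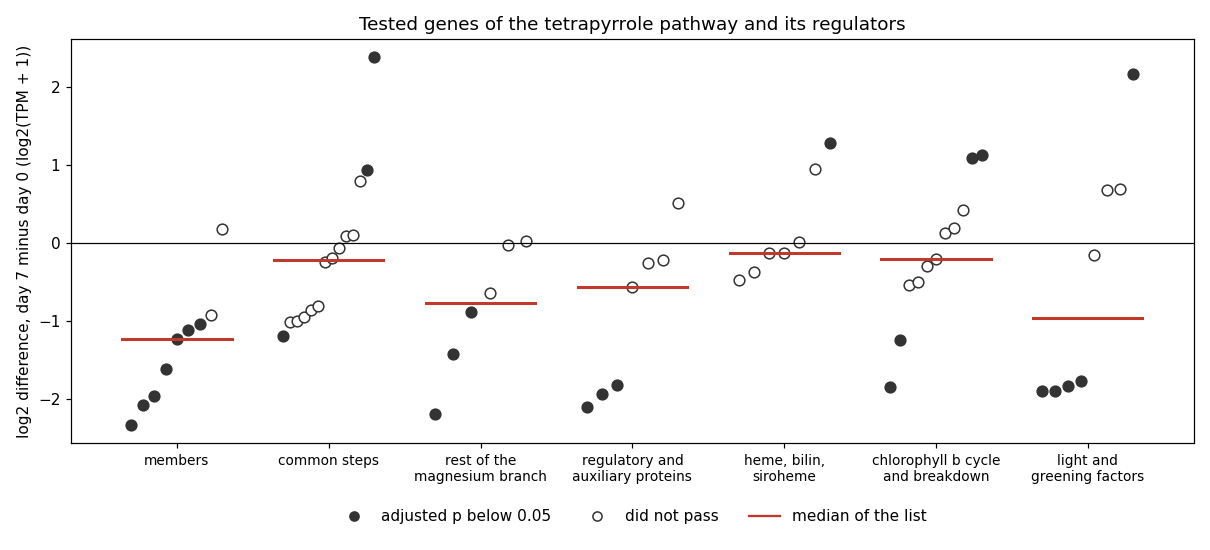
Log2 difference, day 7 minus day 0 on log2(TPM + 1), of each tested gene of the 10 members and of 6 related lists on the deposited scale; filled points passed the limma-trend test and red lines are list medians. Medians run from -1.24 for the members to -0.13 for the heme, bilin and siroheme list, and HEMF2 (2.38) and HY5 (2.16) are the highest points.

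Of 7 genes for proteins that regulate or stabilise the enzymes 3 fell, 0 rose and 4 did not pass, and after scaling 4 fell and 0 rose (16.2% and 33.8% of all tested genes fell). LIL3:1 and BCM1, 2 of the 3, reached 1 TPM at day 0 only and so entered the test through the group in which they are high. GBP, which holds glutamyl-tRNA reductase at the membrane, fell 3.69-fold from 37.7 ± 8.21 to 10.2 ± 3.83 TPM (SD, n = 3 each; limma-trend adjusted p = 2.62e-04). LIL3:1, which stabilises geranylgeranyl reductase, was at 4.13, 4.60 and 7.89 TPM at day 0 and at 0.440, 0.500 and 0.480 TPM at day 7, and BCM1, which binds GUN4, fell 9.75-fold from 5.04 ± 2.27 TPM. LIL3:1 shares 28.2% of its exonic bases with AT4G17610 on the opposite strand, at 4.24 to 12.1 TPM over the 6 libraries, so its level is less certain. The more abundant LIL3:2 (mean 19.4 TPM at day 0 and 12.25 at day 7) and BCM2 (9.03 and 7.57 TPM) did not pass on the deposited scale. After scaling LIL3:2 fell and BCM2 did not pass. LIL3:2 and BCM2 were named after their values were seen. FLU, the repressor of glutamyl-tRNA reductase in the dark, went the other way in its mean, from 24.7 ± 4.19 to 38.1 ± 18.6 TPM, without passing. HEMA1 per FLU was 0.509, 1.32 and 0.623 at day 0 and 0.258, 0.261 and 0.259 at day 7, which do not overlap. This ratio too was picked after the levels had been seen and was not tested. The share of all genes that separate when divided by FLU was not computed.

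The listed light and greening factors did not share 1 direction. GLK2, an activator of chloroplast genes, fell from 6.88 ± 2.72 to 1.01 ± 0.105 TPM (SD, n = 3; limma-trend adjusted p = 5.94e-06). Its relative GLK1 went from 2.79 ± 1.28 TPM to 0, 0.190 and 0 TPM in the 3 day 7 libraries; it reached 1 TPM at day 0 only and entered the test through that group. HY5, a bZIP factor of light signalling, rose 4.86-fold from 20.2 ± 5.92 to 98.1 ± 44.7 TPM (SD, n = 3 each; limma-trend adjusted p = 6.30e-06). Of 8 tested light and greening factors 4 fell and 1 rose, beside 16.2% and 13.4% of all tested genes, and after scaling 4 fell and 3 rose, beside 33.8% and 31.1%. The other falls were PIF1, which like GLK1 was tested through day 0 alone, and PIF3; the further rises after scaling were FHY3 and FAR1 (limma-trend adjusted p = 0.00312 and 0.00367). These 4 were named after their values were seen.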

How the data were processed

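RNA-seq of 3 day 0 and 3 day 7 libraries was analysed from TPM values computed by the authors before they deposited the table, rounded to 2 decimals. Per the submitters' processing notes STAR 2.7.10a, RSEM 1.3.1 and build TAIR10 were used, with no role for each, and per the labels' protocols libraries came from a TruSeq RNA kit. TPM keeps no depth, and whether counting used strand is not given in the sources used here. All 6 columns were used. What each biological replicate consisted of is not given, so p-values rest on the spread between these samples only. On the deposited scale that is a spread common to genes of similar level, not the spread of the gene itself.

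The 18608 genes that reached 1 TPM in 3 or more libraries were compared with the trended moderated test of limma (version 3.58.1, limma-trend; R version 4.3.3), using log2(TPM + 1) and adjusting p-values over all of them by the Benjamini-Hochberg method. On the deposited scale variances were drawn fully to the trend common to all genes, so an SE or p-value there does not use the gene's own spread. GUN4, for example, had an SE of 0.32 as deposited and 0.56 after scaling. Folds are ratios of mean TPM; the pseudocount makes log2 differences understate changes of low genes. Median-of-ratios factors came from genes above 0 in every library. The fit was also run on simulated data with noise drawn independently for each gene, which does not measure false calls in these libraries. Gene names and upstream windows came from TAIR10.1. Tables and figures used Python 3.11.15, pandas 2.3.3, numpy 2.4.6, scipy 1.17.1 and matplotlib 3.10.9.

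The members, lists and tests were chosen with earlier results of these data known. Named genes were all members, 11 pathway genes given always, and from each of 6 lists the 2 largest passing differences whose higher group averaged 5 TPM or more, with the largest opposite difference; exceptions are marked. Alternatives were 3 other scalings, another pseudocount, other filters, no variance trend, a replicate block and leaving out each library.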

Additional observations from a re-analysis of the deposited data

How the results depend on the processing

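Over 136 other values for the 9 tested members, 114 kept their direction and side of the threshold, 8 came to pass, 13 no longer passed and 1 turned; the cause was not tested. Over all genes 12081 changed with median-of-ratios scaling (6296 down, 5785 up), 13010 with nuclear protein-coding genes only (9089 up), 11755 with quantile normalization (5276 down, 6479 up) and 10006 with scaling and without day 0 replicate 3 (4914 down, 5092 up). Leaving out each library gave 2703 to 6685 changed genes, 1349 to 4888 down and 1021 to 3151 up, and 2 to 8 members changed, all down (0 rose). A TPM minimum of 5 left fewer members tested, of which 3 fell, and with nuclear protein-coding genes only 1 rose, CHLD (log2 difference 0.56).

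HEMA1 passed with median-of-ratios scaling (-0.99), also without day 0 replicate 3 (-0.99), with nuclear protein-coding genes only (-0.57) and with quantile normalization (-0.99). CAO did not pass with a pseudocount of 0.1 (-1.22) or no filter (-1.04). Without each library HEMA1 ran from -1.26 to -0.61, CHLD from -0.078 (turned, without day 0 replicate 1) to 0.43, CHLI1 from -1.86 to -1.40, PORB from -1.56 to -1.04, PORC from -1.35 to -0.78 and CAO from -1.29 to -0.87; GUN4 was not tested without a day 0 library. PORB shares of POR transcripts ran from 47.4% to 55.1% at day 0 and 43.3% to 53.7% at day 7.

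Among genes that did not pass, the direction of CHLM turned with median-of-ratios scaling (-0.032), that with the replicate block (-0.032) and quantile normalization (-0.080), that of DVR with nuclear protein-coding genes only (0.28) and with scaling without day 0 replicate 3 (0.10), and that of HEMA2 with nuclear protein-coding genes only (0.11). Without each library CHLM ran from -0.29 to 0.34, DVR from -0.31 to 0.19 and HEMA2 from -0.50 to 0.013.

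The replicate numbers were not taken to pair the libraries. Deviations from the group means correlated by 0.0970, 0.156 and 0.0316 for numbers 1, 2 and 3, and day 7 replicate 3 correlated best with day 0 replicate 1 (0.124). Such correlations cannot see a shift shared by all genes of a library. By replicate number the median-of-ratios factors were 0.777, 1.22 and 0.982 at day 0 and 0.707, 1.56 and 0.973 at day 7, the same order. Whether the numbers pair the libraries was therefore not settled. With the replicate block 10119 genes changed (4886 down, 5233 up), 8 members fell and HEMA1 passed (-0.92); with the block and median-of-ratios scaling 11995 changed (6305 down, 5690 up), 8 members fell and HEMA1 had -0.99. TPM gives no depth, so the precision of genes near 1 TPM, such as GUN4, PORB and PORC, is unknown.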

Other observations

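Calls among genes of chlorophyll breakdown lay near the shares over all tested genes on the deposited scale. Of 11 tested genes of the chlorophyll b cycle and breakdown 2 fell, 2 rose and 7 did not pass (16.2% of all tested genes fell and 13.4% rose), and after scaling 4 fell and 2 rose (33.8% and 31.1%). SGR1, the magnesium dechelatase of senescing leaves, was at 10.3, 11.7 and 11.8 TPM at day 0 and at 2.32, 6.47 and 4.57 TPM at day 7, without overlap (limma-trend adjusted p = 0.0179, lost in 5 of the 6 fits that left out a library). The other fall and the rises were named after their values were seen. The chlorophyllase gene CLH1 had 1.28, 4.51 and 2.71 TPM at day 0 and a listed value of 0 in every day 7 library, whereas its relative CLH2 rose from 1.63 ± 0.286 to 4.91 ± 1.78 TPM and HCAR, which returns chlorophyll b to chlorophyll a, from 0.577 ± 0.317 to 2.32 ± 0.420 TPM (SD, n = 3 each). The call of CLH2 was lost in 4 of the 6 fits that left out a library and that of HCAR in 2 of the 3 that tested it. CLH1 was tested through day 0 alone and HCAR through day 7 alone, the groups in which they are high.

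Of 7 tested genes for heme, bilins and siroheme 0 fell, 1 rose and 6 did not pass by limma-trend (16.2% of all tested genes fell and 13.4% rose). After scaling 2 fell and 2 rose (33.8% and 31.1% of all tested genes). UPM1, which turns uroporphyrinogen towards siroheme, was at 18.4, 26.0 and 31.3 TPM at day 0 and at 46.5, 78.3 and 62.8 TPM at day 7, and rose 2.48-fold without overlap (log2 difference 1.28 ± 0.44 SE, limma-trend adjusted p = 0.0147, lost in 4 of the 6 fits that left out a library).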
